A study of Mus musculus with 2 samples.

Results

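A set of 10 scavenger and lectin receptors, chosen by name as receptors of lymph node sinuses, was described here across lymphatic and blood endothelial subsets, tissues and genotypes. One of them, Scarb1, was a blood endothelial gene in these cells, as its levels show. The genes were Marco, Msr1, Mrc1, Stab1, Stab2, Lyve1, Clec4g, Fcgr2b, Scarb1 and Clec1b, found by symbol in both deposited count matrices. Each of the 10 matched 1 row of the 32285 genes. The cells were endothelial cells sorted from mouse lymph nodes after depletion of CD45+ cells, and all mice had been given tamoxifen. Each of 2 droplet libraries held 4 pools told apart by hashtag antibodies, namely peripheral and mesenteric nodes, each from WT and from Xbp1-KO mice. A group of tissue and genotype is therefore n = 2 pools, 1 per library. The labels used here name neither the Cre driver nor the number, age or sex of the animals in a pool, so p-values measure the spread between these pools only. The comparisons ask how these receptors differ between node types and whether loss of Xbp1, which encodes a factor that drives genes of the unfolded protein response, goes with a change in them.

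Lymph enters a node under the outer wall of the capsule, crosses the sinuses and leaves through the medulla, and the lymphatic endothelial cells that line these channels take up particles, modified proteins and hyaluronan. MARCO and MSR1 are class A scavenger receptors that bind modified lipoproteins and bacteria. The mannose receptor MRC1 and CLEC4G are C-type lectins that bind glycans. STAB2 and LYVE1 are hyaluronan receptors with a Link domain, STAB1 is the relative of STAB2, and the stabilins are the chief clearance receptors of liver sinusoidal endothelium. FCGR2B is the inhibitory receptor for IgG, SCARB1 takes up cholesterol esters from high-density lipoprotein, and CLEC1B, also called CLEC-2, is the receptor for podoplanin best known from platelets.

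After hashtag, quality and doublet filters 9282 cells remained, of which 3732 were lymphatic (Prox1 in at least 25% of a cluster's cells), 5317 blood endothelial and 233 other. The other cells include a dividing-like cluster of 39 cells that was kept out of the lymphatic class although 66.7% of its cells held Prox1. The receptors, the genes of 5 related lists and Xbp1 were left out of the genes used for clustering. Lymphatic cells fell into 5 subsets: floor lymphatic-like (1253 cells, led by Ccl20, Coch and Mmp9), ceiling lymphatic-like (1123, led by Ackr4), Ptx3 lymphatic-like (318, led by Ptx3 and Reln) and 2 that met no fixed marker list and are called by their leading genes, F8/Selenop (591) and Igfbp5/Nts (447). The libraries shared 3 cell barcodes. Median depth was 5254 unique molecular identifiers (UMIs, one per captured RNA molecule) in lymphatic and 2807 in blood cells, and 35 lymphatic and 432 blood cells held too few UMIs to be thinned to 1500. Xist was detected in over 90% of lymphatic cells in both Xbp1-KO pools of library 1 and both WT pools of library 2 and in under 2% in the other 4, so within a library genotype and sex cannot be told apart, while over both libraries they are balanced. Xbp1 itself had 122 and 101 CPM (UMIs of a gene scaled to a common total per sum, that is counts per 1e+06 UMIs) in WT peripheral lymphatic cells, 109 and 56.4 in WT mesenteric, 47.3 and 50.6 in Xbp1-KO peripheral and 53.7 and 52.0 in Xbp1-KO mesenteric cells. The lowest WT value thus lay just above the highest Xbp1-KO value. The labels used here do not say which part of Xbp1 was deleted, so a 3′ count is a limited check.

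In lymphatic cells as a whole 9 of the 10 receptors were more abundant than in blood endothelial cells, and Scarb1 was less abundant (edgeR quasi-likelihood test on pool sums, Benjamini-Hochberg adjusted p under 0.05, 8 of 8 pools in the same direction for each). Over all genes tested, 29.9% were called higher and 24.9% lower in this comparison. Summed over all pools, Lyve1 had 1203 CPM in lymphatic and 16.6 CPM in blood cells, Marco 635 and 7.47, and Stab2 466 and 5. The log2 fold change of Msr1 was 6.72 ± 0.35 (SE, adjusted p = 2.3e-11) and that of Stab1 3.04 ± 0.11 (adjusted p = 2.48e-13). Scarb1 had 31.5 CPM in lymphatic and 639 CPM in blood cells, a log2 fold change of -4.66 ± 0.14 (adjusted p = 3.87e-14). The classes were told apart by Prox1 in clusters made without these receptors.

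The level left in blood cells was close to 1 ratio for 8 receptors. It was 0.697% of the lymphatic level for Msr1, 0.937% for Clec4g, 1.07% for Stab2, 1.12% for Mrc1 and for Clec1b, 1.18% for Marco, 1.38% for Lyve1 and 1.43% for Fcgr2b. Lymphatic marker genes lay in the same range, with 0.810% for Prox1, 0.675% for Pdpn, 0.839% for Mmrn1 and 1.05% for Reln. Whether the blood values of these receptors are background or expression was not tested. Lyve1 was not alike in all blood subsets: high endothelial-like cells, the deepest of them with a median of 7686 UMIs, had 33.8 CPM, and 4.27% of their thinned cells held Lyve1 against 1.33 to 2.29% in the other blood subsets. Stab1 stood above the ratios of the 8 receptors at 9.83%, next to Flt4, the VEGFR3 gene, at 10.7%. In cells thinned to 1500 UMIs, Stab1 was detected in 7.57% of 4885 blood cells and 51.4% of 3697 lymphatic cells, and Lyve1 in 1.88% and 43.8%. Scarb1 in lymphatic cells was at 4.94% of its blood level, and the fixed markers of blood subsets spread widely on this scale. Of 5 capillary markers, Rgcc was at 2.28%, Car4 at 2.51%, Gpihbp1 at 3.27%, Emcn at 8.92% and Kdr at 98.7%. Of 6 arterial markers, Gkn3 was at 0%, Sema3g at 0.741%, Sox17 at 0.816%, Gja5 at 1.23%, Hey1 at 5.72% and Bmx at 448%. The Scarb1 share lies inside both ranges, so whether Scarb1 in lymphatic cells is above background is not read from it.

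**Figure D1:**
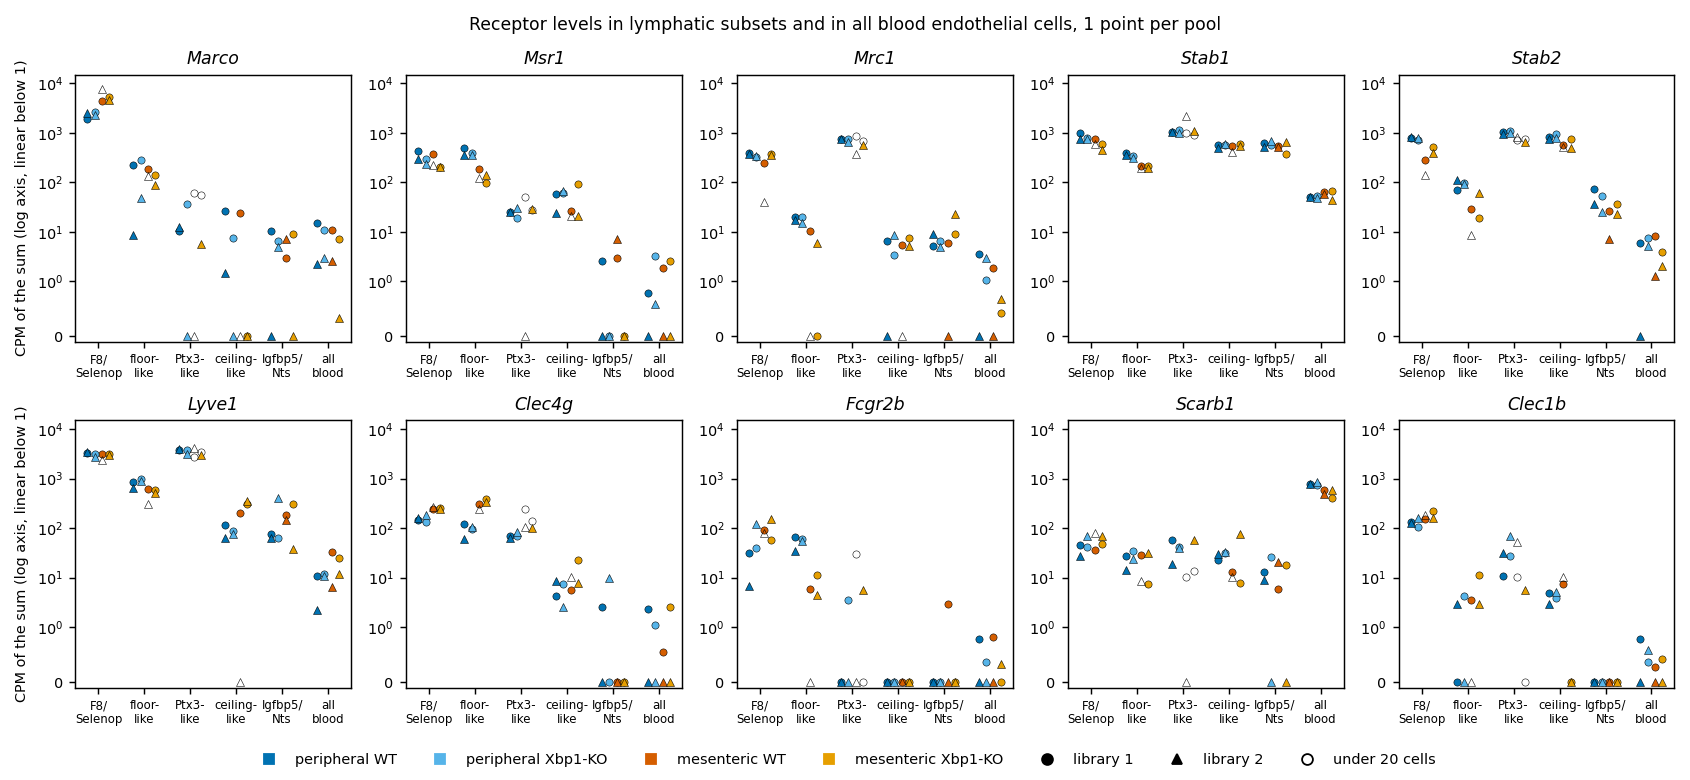
Level of each of the 10 receptors (CPM of the summed cells of 1 pool, log axis that is linear below 1) in the 5 lymphatic subsets and in all blood endothelial cells. Each point is 1 pool, colours give tissue and genotype, shapes the library, and open points are sums of under 20 cells. Marco is highest in F8/Selenop cells, Mrc1 in Ptx3 lymphatic-like cells, and Scarb1 is the receptor with its points highest in blood.

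Within the lymphatic class the receptors did not share a pattern, and levels by subset are given as a description with no test. Ranges are over sums of at least 20 cells, which leaves 7 sums for F8/Selenop, floor-like and ceiling-like cells, 5 for Ptx3-like and 8 for Igfbp5/Nts. Values of different genes are not ranked against each other.

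Marco (chr1:120474538-120505024, minus strand, GRCm38) was concentrated in F8/Selenop cells. Its level there was 1863 to 5379 CPM, against 8.65 to 284 in floor-like cells and at most 36.2 in the other lymphatic subsets. The sums of F8/Selenop and floor-like cells did not overlap. In thinned cells Marco was found in 64.3% of F8/Selenop cells (63.7% in library 1, 67.0% in library 2), 8.67% of floor-like cells and 1.90% of Ptx3-like cells, and in 1.17% of blood cells. Msr1 (chr8:39581685-39642673, minus strand), the other class A receptor, was instead shared by floor-like cells, at 96.7 to 498 CPM, and F8/Selenop cells, at 199 to 432 CPM. These ranges overlapped. Ceiling-like cells had 21.0 to 91.4 CPM of Msr1, and none of the F8/Selenop sums reached down to that range.

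Mrc1 (chr2:14229392-14332057, plus strand) was highest in Ptx3 lymphatic-like cells, at 565 to 747 CPM, and next in F8/Selenop cells, at 249 to 382 CPM, with no overlap. It was at most 22.9 CPM in any sum of the other 3 lymphatic subsets. At Leiden resolution 0.5 its level over all pools went from 6.92 to 30.3 CPM in Igfbp5/Nts and from 4.75 to 16.004 CPM in ceiling-like cells. The thinned share of cells with Mrc1 was 52.2% in Ptx3-like, 34.4% in F8/Selenop and 1.77% in floor-like cells. Mrc1, the mannose receptor, and Marco thus had their highest levels in different subsets, and both were found in F8/Selenop cells. In that subset Mrc1 was detected in 36.8% of cells with Marco and in 30.0% of cells without it.

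Of the stabilins and Lyve1, Stab1 (chr14:31139013-31168641, minus strand) was present in every lymphatic subset, from 193 to 382 CPM in floor-like cells to 974 to 1156 CPM in Ptx3-like cells. Neighbouring subsets in this order overlapped, except that the ceiling-like sums, at 487 to 594 CPM, lay above all floor-like sums. The floor-like sums overlapped those of Igfbp5/Nts cells, at 377 to 676 CPM. Its relative Stab2 (chr10:86841198-87008025, minus strand) separated the subsets: 655 to 1071 CPM in Ptx3-like, 495 to 938 in ceiling-like and 287 to 818 in F8/Selenop cells, with overlap among these 3, but only 18.6 to 110 CPM in floor-like and 6.97 to 71.4 CPM in Igfbp5/Nts cells. Lyve1 (chr7:110850607-110863239, minus strand) was at 3033 to 4042 CPM in Ptx3-like and 2702 to 3468 CPM in F8/Selenop cells, which overlapped. It was lower in floor-like cells, at 504 to 989 CPM, and lower again in Igfbp5/Nts, at 38.2 to 412 CPM, and ceiling-like cells, at 63.2 to 351 CPM. Summed over all pools, Lyve1 in ceiling-like cells was 119 CPM, and 244 CPM at the coarser Leiden resolution of 0.5. Between ceiling-like and floor-like cells the 2 genes thus lay in opposite order, with Stab2 higher in ceiling-like and Lyve1 higher in floor-like cells, while Lyve1 was below the Ptx3-like and F8/Selenop levels in both. Thinned shares were in the same order: Stab2 in 62.4% and Lyve1 in 7.42% of ceiling-like cells, and 6.99% and 52.8% in floor-like cells.

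Of the small lectins, Clec4g (chr8:3707064-3720651, minus strand) had 133 to 254 CPM in F8/Selenop, 60.6 to 387 in floor-like and 62.3 to 102 in Ptx3-like cells, where the floor-like range overlapped both others and the F8/Selenop sums lay above all Ptx3-like sums, and at most 22.8 CPM in ceiling-like cells. Fcgr2b, the Fc receptor (chr1:170958617-170976547, minus strand), had 6.76 to 154 CPM in F8/Selenop cells and 4.46 to 65.1 CPM in floor-like cells. In ceiling-like cells Fcgr2b had 0 UMIs in all 8 sums. Clec1b (chr6:129397297-129409335, plus strand) had 107 to 217 CPM in F8/Selenop cells and 5.65 to 70.5 CPM in Ptx3-like cells, without overlap, and 0 UMIs in Igfbp5/Nts cells. Scarb1 (chr5:125277087-125341094, minus strand) stayed between 0 and 76.0 CPM in every lymphatic subset, and was found in 5.44% of thinned F8/Selenop cells against 55.1% of thinned blood cells.

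Many receptors met in the same cells of 2 subsets. Of the 9 receptors other than Scarb1, a thinned F8/Selenop cell held UMIs of a median of 4, and 61.9% of 588 such cells held at least 4. Ptx3-like cells had a median of 3, and 37.3% held at least 4. The medians were 2 in floor-like, 1 in ceiling-like and 1 in Igfbp5/Nts cells, where 5.54%, 0.984% and 0% of cells held at least 4. In blood cells 88.4% held none of the 9. Every Clec1b-positive F8/Selenop cell, 91 of 91, also had Lyve1, which was found in 92.0% of the Clec1b-negative ones.

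Markers of other cell types were not absent. Of 13 macrophage markers, 11 had UMIs in F8/Selenop and 11 in floor-like cells, with summed levels of 153 and 234 CPM over all pools, and Ctss, which encodes cathepsin S, made up 125 and 182 CPM of these. The markers without Ctss summed to 28.0 CPM in F8/Selenop and 51.9 CPM in floor-like cells. Of these, Ptprc and Adgre1 were each at 0.280 CPM in F8/Selenop cells. In floor-like cells Ptprc was at 0.143 CPM and Adgre1 at 0, and Vsig4 was at 0 in both subsets. C1qa had 11 UMIs in F8/Selenop and 7 in floor-like cells, against 0 in the other lymphatic subsets and 11 in blood cells. Whether these UMIs came from macrophage RNA was not tested. The Prtn3/Plac8 cluster of 30 cells, no endothelial subset, was led by Prtn3, Plac8, Mpo and Ctsg. Ptprc was at 121 CPM and Ctss at 67.7 CPM there. C1qa, C1qc, Siglec1 and Vsig4 were at 0 in it, so it is no reference for macrophages with these markers. Ctss was at 156 CPM in the Igkc/Ighm cluster. Pf4, from the platelet list, had 93.5 CPM in floor-like cells, while Gp9 and Gp1bb were at 0 there. In F8/Selenop cells, where Clec1b was highest, the 5 platelet markers summed to 7.28 CPM and Gp9, Gp1bb and Treml1 were at 0, while Itga2b, the integrin gene known from platelets and a fixed marker of floor-like cells, was among the 10 leading genes of the subset. Among lymphatic cells 70.3% had no macrophage-marker UMI and 89.8% had none other than Ctss.

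Peripheral and mesenteric nodes differed in 4 of the 10 receptors over all lymphatic cells, where 4.57% of all genes were called. Marco, Clec4g and Clec1b were lower and Stab2 was higher in peripheral nodes, each in 4 of 4 pool pairs. Marco had 396 and 259 CPM in the WT peripheral pools, 624 and 215 in the Xbp1-KO peripheral pools, 1058 and 916 in the WT mesenteric pools and 1838 and 918 in the Xbp1-KO mesenteric pools. Every mesenteric pool was above every peripheral pool, and the log2 fold change was -1.73 ± 0.28 (edgeR, adjusted p = 0.00336). Clec4g had 41.7 to 74.6 CPM in peripheral and 103 to 218 CPM in mesenteric pools, again without overlap, with a log2 fold change of -1.54 ± 0.18 (adjusted p = 0.000294). Clec1b had 18.5 to 25.9 CPM in peripheral and 25.8 to 75.4 CPM in mesenteric pools, where the groups touched, with -0.91 ± 0.22 (adjusted p = 0.0346). Without library 1 the Clec1b value was -0.59 (adjusted p = 0.609), and in thinned cells -0.55 (adjusted p = 0.369). Stab2 had 507 to 570 CPM in peripheral and 174 to 352 CPM in mesenteric pools, with 0.99 ± 0.13 (adjusted p = 0.000896).

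Msr1 was higher in the peripheral pool of all 4 pairs as well, at 0.70 ± 0.23 (adjusted p = 0.114), and was called with the library as a block, which pairs the pools of 1 library (0.68 ± 0.13, adjusted p = 0.00166, where 12.5% of genes were called). Lyve1, Mrc1, Stab1, Scarb1 and Fcgr2b had log2 differences between -0.04 and 0.21 with no call. A difference over the whole class can come from the mix of subsets as well as from levels within them. F8/Selenop cells, where Marco and Clec1b were highest, were 9.23 to 26.9% of lymphatic cells in mesenteric pools and 8.71 to 17.7% in peripheral pools, with a higher share in the mesenteric pool of 4 of 4 pairs. Ceiling-like cells, among the highest for Stab2, were 14.6 to 23.95% of lymphatic cells in mesenteric and 30.5 to 45.2% in peripheral pools, without overlap. The part of this mix in the class-wide differences was not tested. Summed macrophage markers in lymphatic cells were 68.1 to 106 CPM in mesenteric and 77.3 to 133 CPM in peripheral pools. Among cells without any macrophage-marker UMI the values of Marco and Clec1b were -1.45 (adjusted p = 0.112) and -0.71 (adjusted p = 0.294), and Clec4g and Stab2 kept their calls.

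The stretches before the starts of the 3 receptors that were lower in peripheral nodes are shown because these were the 3 called lower there over the whole lymphatic class. Each is 250 bases that end at the base before the RefSeq start, from the GRCm38.p6 table, written 5′ to 3′ on the gene's strand. Capitals mark CAGGAA, the core of ETS sites, or the same letters read on the opposite strand, TTCCTG. They also mark TATAAA, an element of core promoters, or the same element read on the opposite strand, TTTATA. Marco is at chr1:120505025-120505274, Clec4g at chr8:3720652-3720901, both on the minus strand, and Clec1b at chr6:129397047-129397296 on the plus strand.
Marco: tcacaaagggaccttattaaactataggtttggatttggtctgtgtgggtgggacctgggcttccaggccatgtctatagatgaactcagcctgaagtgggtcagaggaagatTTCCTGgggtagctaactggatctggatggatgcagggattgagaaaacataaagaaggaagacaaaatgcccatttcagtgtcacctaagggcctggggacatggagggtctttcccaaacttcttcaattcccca
Clec4g: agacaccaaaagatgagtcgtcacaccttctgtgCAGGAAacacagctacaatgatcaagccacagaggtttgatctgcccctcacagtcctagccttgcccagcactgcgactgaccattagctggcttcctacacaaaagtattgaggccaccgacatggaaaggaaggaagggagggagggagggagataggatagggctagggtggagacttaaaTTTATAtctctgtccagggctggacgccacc
Clec1b: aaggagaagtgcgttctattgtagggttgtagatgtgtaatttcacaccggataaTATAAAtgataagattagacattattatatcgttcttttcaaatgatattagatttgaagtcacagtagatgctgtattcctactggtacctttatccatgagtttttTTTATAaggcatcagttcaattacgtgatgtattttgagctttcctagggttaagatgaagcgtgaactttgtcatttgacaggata

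Of the 7 receptors in that table (Msr1, Lyve1 and Scarb1 were not among them), CAGGAA was found on either strand in 5, namely Marco, Clec4g, Mrc1, Stab1 and Stab2, and in 25.7% of all 32851 windows of the same length. TATAAA was found in Clec1b and Clec4g and in 12.4% of all windows. TGCTGA, a core of MAF sites, was found in Stab1 and in 16.1% of all windows, and in none of the printed ones. No matches overlapped in the printed windows. These matches describe letters and not binding.

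Within subsets the tissue difference took other forms. Only Igfbp5/Nts cells reached 20 cells in all 8 sums, and there 0 of the 2 receptors tested, Stab1 and Lyve1, were called (edgeR; 0 at an unadjusted p under 0.05, 0 by DESeq2; 0.653% of genes called). With a minimum of 5 cells per sum, chosen after the cell numbers were seen, F8/Selenop, floor-like and ceiling-like cells could be tested too, and 11 differences between tissues were called in them. The WT mesenteric sums of library 2 rest on 6, 18 and 13 cells in these 3 subsets.

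In F8/Selenop cells 4 of 10 receptors were called, where 5.35% of genes were. Marco was at 1863 and 2515 CPM in WT peripheral, 2665 and 2299 in Xbp1-KO peripheral, 4454 and 7537 in WT mesenteric and 5379 and 4506 in Xbp1-KO mesenteric sums. All mesenteric sums were higher, with a log2 fold change of -1.20 ± 0.15 (edgeR, adjusted p = 1.61e-07). Clec4g, at 133 to 179 CPM in peripheral and 244 to 263 CPM in mesenteric sums, changed in the same direction (-0.73 ± 0.18, adjusted p = 0.01). Stab2 was higher in peripheral nodes, with 723 to 818 CPM against 141 to 505 CPM (1.20 ± 0.18, adjusted p = 6.01e-06). Without library 1 the Clec4g value was -0.54 (adjusted p = 0.848), and in cells with no macrophage-marker UMI other than Ctss it was -0.61 (adjusted p = 0.0609). DESeq2 called Marco and Stab2 here but not Clec4g (-0.71, adjusted p = 0.292).

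In floor-like cells 6 of the 9 receptors tested were called, where 13.6% of genes were. Clec4g was lower in peripheral nodes, at 60.6 to 120 CPM against 238 to 387 CPM (-1.86 ± 0.17, adjusted p = 6e-08). Msr1 had 498 and 349 CPM in WT peripheral, 386 and 361 in Xbp1-KO peripheral, 189 and 119 in WT mesenteric and 96.7 and 138 in Xbp1-KO mesenteric sums, and was higher in peripheral nodes (1.31 ± 0.17, adjusted p = 8.57e-06). The peripheral and mesenteric sums did not overlap for either gene. Stab2 (1.15 ± 0.25, adjusted p = 0.00238), Stab1 (0.61 ± 0.15, adjusted p = 0.0068) and Lyve1 (0.54 ± 0.16, adjusted p = 0.0274) were also higher in peripheral nodes. Stab2 and Stab1 lost the call without library 1, at 0.91 (adjusted p = 0.133) and 0.63 (adjusted p = 0.181), and Lyve1 without the small WT mesenteric sums of library 2, at 0.35 (adjusted p = 0.132). DESeq2 did not call Lyve1 (0.54, adjusted p = 0.0566), and in thinned cells Stab2 (0.83, adjusted p = 0.228) and Stab1 (0.50, adjusted p = 0.127) were not called. Marco in floor-like cells followed the library more than the tissue, with 141 to 284 CPM in library 1 and 8.65 to 136 CPM in library 2.

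Fcgr2b differed between tissues in opposite directions in these 2 subsets. In floor-like cells it had 65.1 and 34.6 CPM in WT peripheral and 59.7 and 54.1 CPM in Xbp1-KO peripheral sums. The mesenteric sums had 5.86 and 0 CPM in WT and 11.2 and 4.46 CPM in Xbp1-KO, so the tissues did not overlap. The log2 fold change was 3.12 ± 0.35 (edgeR, adjusted p = 9.76e-07), and it rests on 11 UMIs in the 4 mesenteric sums together. DESeq2 gave no adjusted p for it. In F8/Selenop cells Fcgr2b had 32.0 and 6.76 CPM in WT peripheral, 39.4 and 120 in Xbp1-KO peripheral, 90.6 and 80.8 in WT mesenteric and 58.4 and 154 in Xbp1-KO mesenteric sums. Here the tissues overlapped, each pair in a library and genotype was higher in mesenteric nodes, and the log2 fold change was -1.33 ± 0.32 (adjusted p = 0.00688; -0.78 and adjusted p = 0.836 without library 1; -1.21 and adjusted p = 0.987 by DESeq2). The difference between the 2 tissue effects was -4.42 ± 0.57 on the log2 scale (adjusted p = 5.33e-06), in a fit where 1.23% of genes were called.

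The same fit called Clec4g, whose fall in peripheral nodes was smaller in F8/Selenop than in floor-like cells by 1.16 ± 0.26 (adjusted p = 0.0107; 1.37 and adjusted p = 0.246 without library 1; 0.57 and adjusted p = 0.666 in thinned cells). With the pool as a block, 3.69% of genes were called and Msr1 (-0.98 ± 0.19, adjusted p = 0.000242) and Marco (-0.97 ± 0.30, adjusted p = 0.0445) joined them; without it they were at -0.97 (adjusted p = 0.0552) and -1.16 (adjusted p = 0.303). Summed macrophage markers in floor-like cells were 208 to 296 CPM in peripheral and 128 to 197 CPM in mesenteric sums, which did not overlap. Without Ctss they were 37.5 to 76.2 and 25.5 to 85.6 CPM, which did. In cells with no macrophage-marker UMI other than Ctss, Fcgr2b in floor-like cells was at 3.48 (adjusted p = 1.01e-06) and the difference between the subsets at -4.93 (adjusted p = 5.35e-05).

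**Figure D2:**
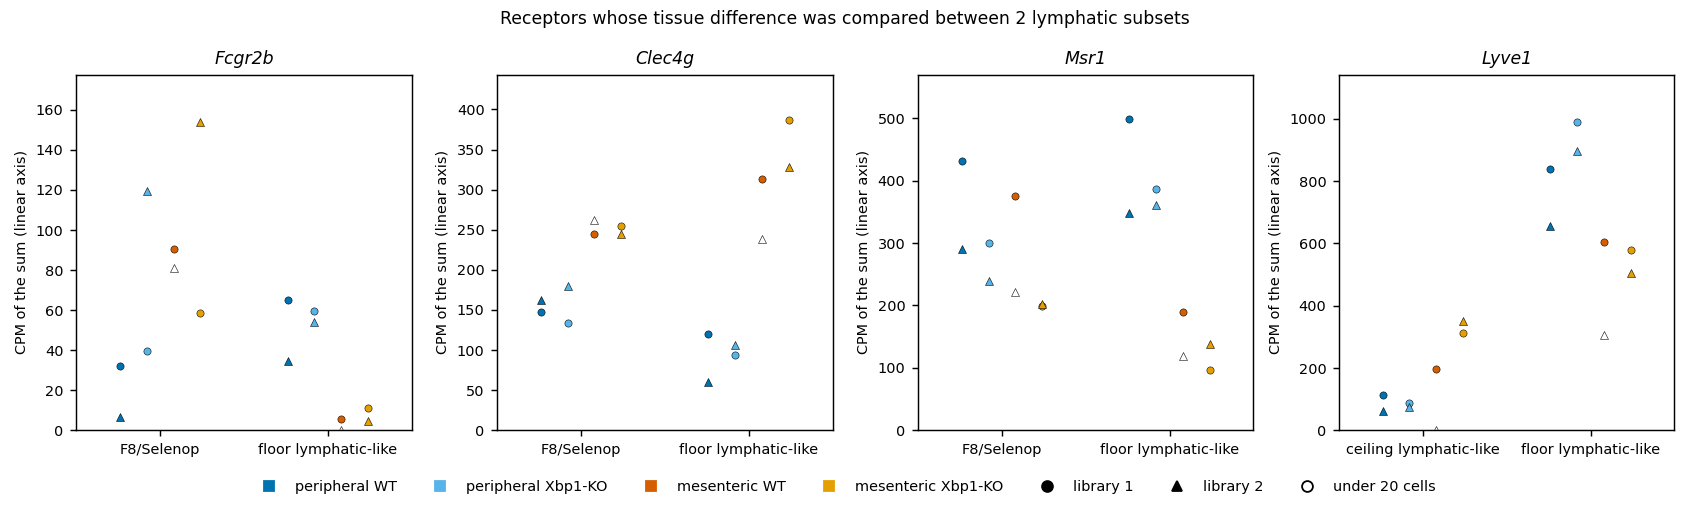
Fcgr2b, Clec4g and Msr1 in F8/Selenop and floor lymphatic-like cells and Lyve1 in ceiling and floor lymphatic-like cells (CPM of the sum, linear axis from 0). Each point is 1 pool, with tissue and genotype by colour and library by shape, and open points are sums of under 20 cells. Fcgr2b in floor-like cells lies between 34.6 and 65.1 CPM in peripheral sums and at 11.2 CPM or less in mesenteric sums, and lies higher in the mesenteric sum of each pair in F8/Selenop cells.

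In ceiling-like cells 1 of the 6 receptors tested was called, where 1.5% of genes were. Lyve1 had 63.2 to 113 CPM in peripheral sums and 198, 0, 312 and 351 CPM in mesenteric sums. The 0 belongs to the WT mesenteric sum of library 2 with 13 cells, so 3 of 4 pairs gave the direction. The other WT mesenteric sum had 114 cells and the Xbp1-KO mesenteric sums 25 and 46. Lyve1 was found in 7.42% of thinned ceiling-like cells, and its level over all pools went from 119 to 244 CPM at Leiden resolution 0.5. Whether cells of other subsets carried it was not tested. Lyve1 was called lower in peripheral nodes, at -1.43 ± 0.28 (edgeR, adjusted p = 0.00621; -1.44 and adjusted p = 0.868 without library 1), opposite to floor-like cells. DESeq2 did not call it (-1.18, adjusted p = 0.997), nor did edgeR in thinned cells (-1.09, adjusted p = 0.0633). The difference between the tissue effects of ceiling-like and floor-like cells was -1.94 ± 0.37 for Lyve1 (adjusted p = 0.00798), with 0.461% of genes called. DESeq2 gave -1.80 with no call (adjusted p = 0.593). With the pool as a block 1.72% of genes were called and Stab1 was added (-0.61 ± 0.16, adjusted p = 0.0125). Stab2 in ceiling-like cells, with 741 to 938 CPM in peripheral and 495 to 754 CPM in mesenteric sums, was at 0.47 ± 0.15 (adjusted p = 0.158) and was called with the library as a block (0.48 ± 0.12, adjusted p = 0.0221, 3.19% of genes called).

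**Figure D3:**
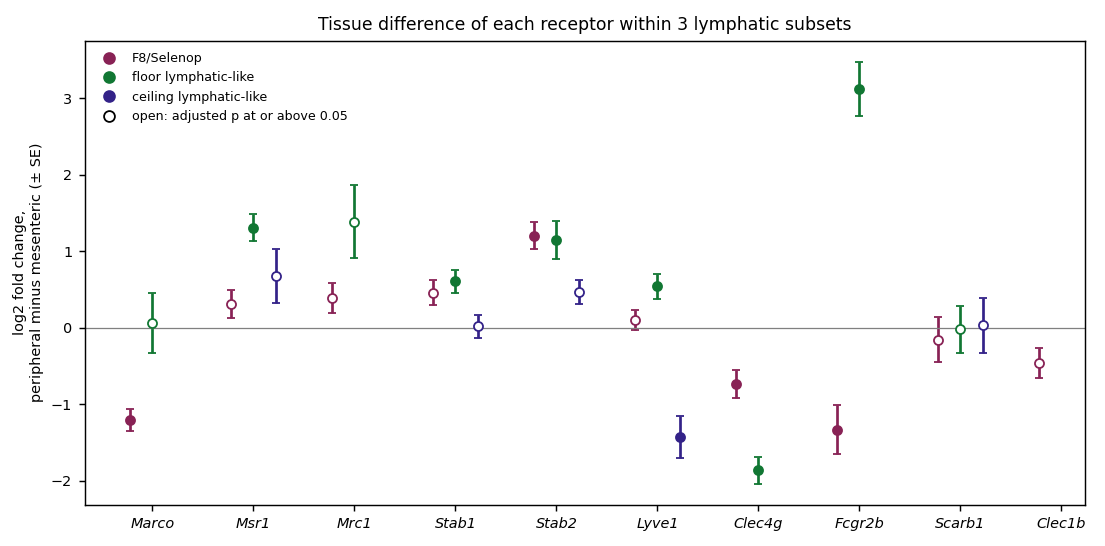
Log2 fold change, peripheral minus mesenteric, with its SE, of each receptor tested in F8/Selenop, floor lymphatic-like and ceiling lymphatic-like cells. Filled points have an adjusted p under 0.05, and 1 fit with an SE of 1 or more (Marco in ceiling-like cells, near 0 counts) is left out. Stab2 lies above 0 in all 3 subsets, Clec4g below 0 in the 2 where it was tested, and Fcgr2b and Lyve1 on both sides.

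Over both tissues no receptor was called between genotypes, and the outcome of an added comparison within mesenteric nodes depended on the fit. Over all lymphatic cells 0 of 10 were called (edgeR; 1 at an unadjusted p under 0.05; 0 by DESeq2), and 0% of all genes were. The log2 fold changes, Xbp1-KO minus WT, ran from -0.17 ± 0.23 for Msr1 to 0.48 ± 0.20 for Scarb1, with a smallest adjusted p of 0.827. Lyve1 had 1258 and 985 CPM in WT peripheral, 1330 and 933 in Xbp1-KO peripheral, 1098 and 596 in WT mesenteric and 1585 and 1193 in Xbp1-KO mesenteric pools, and its log2 fold change was 0.33 ± 0.18. The genotypes overlapped. With the library as a block 0.776% of genes were called and again none of the receptors, with a smallest adjusted p of 0.0847. In that fit 8 of 10 receptors and 11.2% of all genes tested had an unadjusted p under 0.05. The median log2 fold change was 0.32 over the 10 receptors and 0.01 over all genes. With the same block the median was 0.05 over 10 receptors in F8/Selenop cells. It was 0.17 over 9 in floor-like, 0.37 over 6 in ceiling-like and 0.38 over 2 in Igfbp5/Nts cells. F8/Selenop cells were 17.7% of peripheral lymphatic cells in Xbp1-KO and 14.3% in WT in library 1, and 8.87% and 8.71% in library 2. Their mesenteric shares, given below, were also higher in Xbp1-KO. The part of this mix was not tested. The genotype effect did not differ by a called amount between the tissues for any receptor (0% of genes called; 2 receptors at an unadjusted p under 0.05; 0 by DESeq2). Mrc1 had the largest such difference, -1.25 ± 0.45: 148 and 125 CPM in WT against 137 and 106 CPM in Xbp1-KO peripheral pools, and 96.9 and 21.1 against 182 and 133 CPM in mesenteric pools. Within mesenteric nodes, a comparison added after the values were seen, 0 of 10 receptors were called (edgeR; 4 at an unadjusted p under 0.05; 0 by DESeq2; 0.0281% of genes called). With the library as a block Mrc1 (1.12 ± 0.22, adjusted p = 0.00986) and Lyve1 (0.71 ± 0.13, adjusted p = 0.00606) were called higher in Xbp1-KO, in 2 of 2 pairs each, where 1.04% of genes were called. Without the block they were at 1.05 (adjusted p = 0.552) and 0.67 (adjusted p = 0.669). The WT mesenteric pool of library 2, the lowest for both genes, had 65 lymphatic cells. The 2 subsets with the highest levels of both genes took a larger share of the lymphatic cells in the Xbp1-KO mesenteric pools: F8/Selenop cells 26.9% against 17.9% in WT in library 1 and 18.3% against 9.23% in library 2, and Ptx3-like cells 6.43% against 3.36% and 9.38% against 4.62%. The part of this mix in the result was not tested.

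These values do not show that the genotypes are alike, since an SE of 0.28 for Marco leaves room for changes of that order. Within single libraries, where genotype goes with sex, Marco was called higher in Xbp1-KO cells without library 2 (0.68, adjusted p = 3.25e-05; 0.496% of genes called) and Fcgr2b without library 1 (1.70, adjusted p = 0.0234; 0.35% called). Neither rise was seen in the other library. In library 1 Fcgr2b had 27.9 CPM in WT and 29.4 in Xbp1-KO peripheral and 23.8 and 22.9 CPM in mesenteric pools. In library 2 Marco had 259 CPM in WT and 215 in Xbp1-KO peripheral and 916 and 918 CPM in mesenteric pools. Within subsets 0 receptors were called for genotype in F8/Selenop (3 at an unadjusted p under 0.05), floor-like (1), ceiling-like (2) and Igfbp5/Nts cells (0), where 0.176%, 0.211%, 0.0125% and 0% of genes were called by edgeR, and DESeq2 called 0 as well. Msr1 in F8/Selenop cells lay lower in the Xbp1-KO sum of 4 of 4 pairs, at -0.56 ± 0.18 (adjusted p = 0.489).

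**Figure D4:**
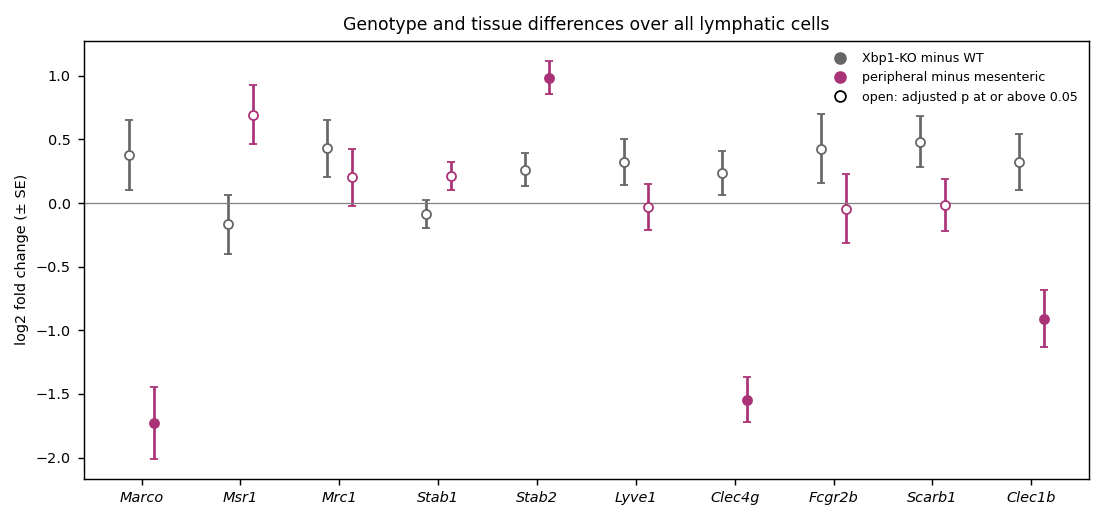
Log2 fold change with its SE of each receptor over all lymphatic cells, Xbp1-KO minus WT (grey) and peripheral minus mesenteric (purple). Filled points have an adjusted p under 0.05. The genotype points lie between -0.17 and 0.48, all open, and Marco, Clec4g, Clec1b and Stab2 are filled for tissue.

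In blood endothelium Scarb1 and, at lower levels, Stab1 were found in every subset. Scarb1 ran from 871 to 1110 CPM in Igfbp3/Aqp1 cells and 713 to 1076 in Tcim/Nr4a1 cells over 514 to 849 in Penk/Col13a1, 369 to 710 in capillary-like, 290 to 670 in tip-like and 440 to 590 in venous-like cells to 158 to 690 in high endothelial-like and 162 to 390 in arterial-like cells. Each neighbour in this order overlapped the next, and the arterial-like sums did not overlap the highest lymphatic subset. Thinned shares of cells with Scarb1 were 68.4% in Igfbp3/Aqp1, 28.0% in high endothelial-like and 23.8% in arterial-like cells. Stab1 had the next highest ratio of blood to lymphatic level. It was detected in 4.404% (Penk/Col13a1) to 14.3% (venous-like, with 20.2% in library 1 and 2.27% in library 2) of the thinned cells of the 8 subsets.

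Over all blood cells Scarb1 had 777 and 779 CPM in WT peripheral, 747 and 840 in Xbp1-KO peripheral, 580 and 497 in WT mesenteric and 413 and 586 in Xbp1-KO mesenteric pools. Every peripheral pool was above every mesenteric one, at a log2 fold change of 0.52 ± 0.14 that was not called (edgeR, adjusted p = 0.0942). High endothelial-like cells, which were low in Scarb1, gave 21.1 to 46.3% of the blood UMIs in mesenteric and 3.67 to 11.8% in peripheral pools, without overlap, and the part of this mix in the difference was not tested. Of the 5 receptors tested 0 were called (2 at an unadjusted p under 0.05; 1 by DESeq2, Scarb1), where 2.90% of genes were. With the library as a block Scarb1 (0.52 ± 0.10, adjusted p = 0.00884) and Lyve1 (-1.19 ± 0.29, adjusted p = 0.0306) were called, as were 6.34% of genes. Lyve1 in blood cells was at 2.19 to 32.7 CPM. The genotype test called 0 of 5 in blood (edgeR; 0 at an unadjusted p under 0.05; 0 by DESeq2; 0% of genes).

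Within blood subsets of at least 20 cells in each sum, 0 receptors were called between tissues in Igfbp3/Aqp1 (1.11% of genes called), Tcim/Nr4a1 (1.65%), arterial-like (0.231%) or capillary-like cells (0.279%); 0, 1, 0 and 1 had an unadjusted p under 0.05 in edgeR and DESeq2 called 0. Scarb1 in Tcim/Nr4a1 cells was higher in peripheral nodes in 4 of 4 pairs, with 897 to 1076 CPM against 713 to 795 CPM and no overlap. Its log2 fold change of 0.36 ± 0.14 had an adjusted p of 0.362, and 0.00163 with the library as a block, where 5.50% of genes were called. In capillary-like cells the sums lay the other way, at 369 to 534 CPM in peripheral and 683 to 710 CPM in mesenteric nodes (-0.59, adjusted p = 0.609). In Igfbp3/Aqp1 cells they overlapped, at 871 to 1110 and 886 to 1079 CPM.

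High endothelial-like cells were tested with at least 5 cells per sum, a choice made after the values were seen, and there Scarb1 was higher in peripheral nodes. It had 690 and 366 CPM in WT peripheral, 422 and 838 in Xbp1-KO peripheral, 208 and 173 in WT mesenteric and 158 and 276 in Xbp1-KO mesenteric sums. Every peripheral sum was above every mesenteric one. The log2 fold change was 1.45 ± 0.25 (edgeR, adjusted p = 0.00811), the only call among 3 receptors tested where 0.528% of genes were called, and blocking on library gave 1.44 ± 0.20 (adjusted p = 0.000801), where 1.02% were. The peripheral sums rest on 22, 12, 46 and 14 cells and the mesenteric sums on 55 to 126. In the same order the peripheral sums held 94239, 103780, 327208 and 90661 UMIs, and the mesenteric sums held 625271 to 1091734. Whether other blood cells were mixed into the peripheral sums was not tested. Lyve1 in these cells had 0 UMIs in 3 peripheral sums and 31.8 CPM, from 3 UMIs, in the other, against at most 70.5 CPM and at least 5 UMIs in each mesenteric sum, and was not called (adjusted p = 0.247; -2.50 and adjusted p = 0.0199 without library 2, with 1.83% of genes called, and -4.69 and adjusted p = 0.0149 without the WT mesenteric sum of library 2, with 0.4% called).

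**Figure D5:**
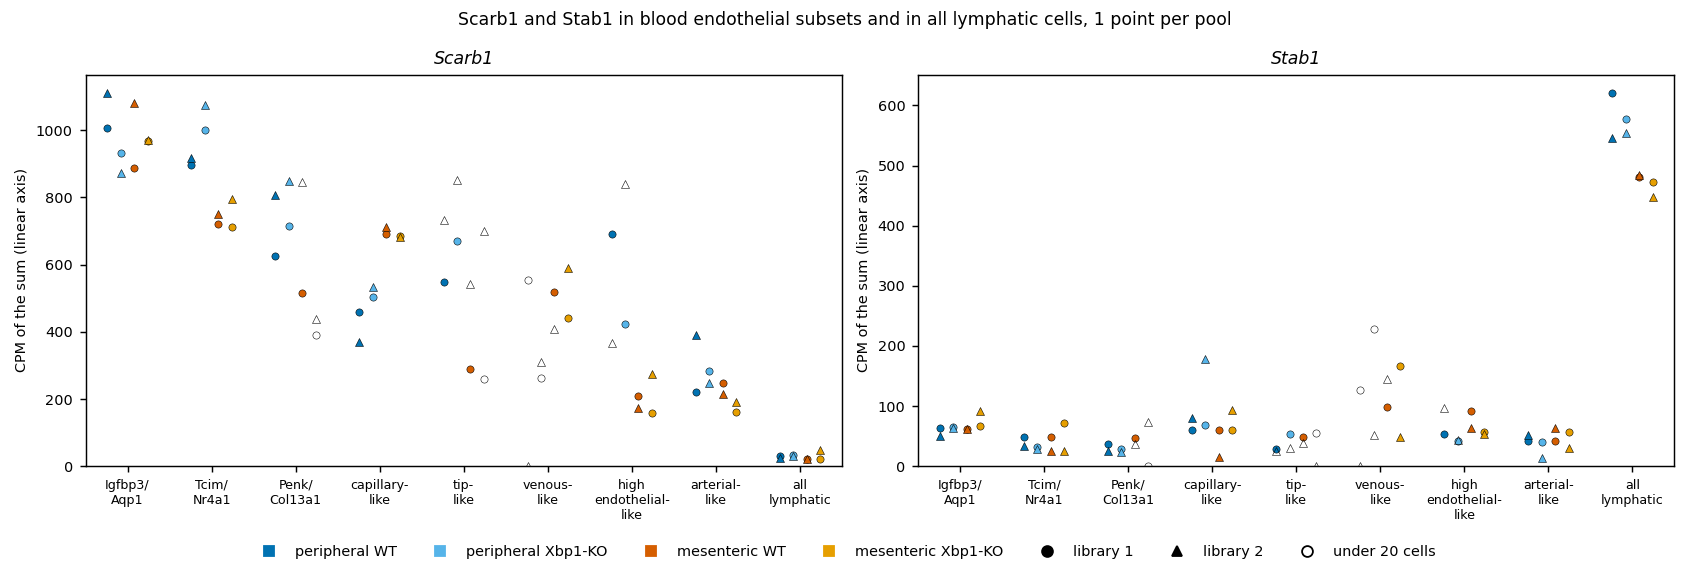
Scarb1 and Stab1 (CPM of the sum, linear axis from 0) in the 8 blood endothelial subsets and in all lymphatic cells. Each point is 1 pool, with tissue and genotype by colour and library by shape, and open points are sums of under 20 cells. Scarb1 points of Igfbp3/Aqp1 and Tcim/Nr4a1 cells overlap at the top, and in Tcim/Nr4a1 cells its peripheral points lie above its mesenteric points, while in capillary-like cells they lie below.

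Other genes of the same pathways were counted from lists that exclude the 10 receptors. Over all genes tested 29.9% were higher and 24.9% lower in lymphatic than in blood cells, so calls are frequent in this comparison. Of 14 other scavenger receptors tested of 21, 9 were higher and 2 lower, with a median log2 fold change of 1.87 beside 0.04 over all genes tested. Lrp2, the endocytic receptor megalin (5.66 ± 0.50), Colec12, a scavenger collectin (3.40 ± 0.29), Scarf2 (3.32 ± 0.23) and Cxcl16, the membrane-bound chemokine that binds oxidised lipoprotein (3.26 ± 0.13), had the largest differences (edgeR, adjusted p of 1.02e-07, 2.07e-08, 1.13e-09 and 1.01e-12). Of 8 other lectin receptors tested, 2 rose in lymphatic cells, Pla2r1 (4.90 ± 0.43) and Cd302 (3.02 ± 0.12), and 4 fell, with Cd93 at -2.80 ± 0.12 and Clec14a at -2.25 ± 0.13. Of 2 other Fc receptor genes tested, Fcgrt, the neonatal Fc receptor, was higher in lymphatic cells (0.70 ± 0.11) and Fcer1g lower (-2.19 ± 0.43). Of 7 hyaluronan genes tested, 5 were higher and 1 lower. Cemip2, a hyaluronan-degrading enzyme, was at 601 CPM in lymphatic and 108 CPM in blood cells (2.09 ± 0.12). Has2, with 3.27 CPM, and Tnfaip6, with 2.28 CPM, were at 0 CPM in blood, and Has3 was lower in lymphatic cells (-2.13 ± 0.32). Of 22 clathrin and lysosome genes tested, 12 were higher and 3 lower, among them Ehd1 (2.50 ± 0.15), the clathrin adaptor Dab2 (1.93 ± 0.11) and cathepsin D, Ctsd (1.89 ± 0.10), against Gulp1 (-7.85 ± 0.37).

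Between tissues fewer of these genes were called in lymphatic cells, where 4.57% of all genes were. Scarb2, the lysosomal LIMP-2 gene (-0.79 ± 0.13), Vldlr (-0.71 ± 0.17) and Cxcl16 (-0.67 ± 0.13) were lower and Scarf2 (0.72 ± 0.19) higher in peripheral nodes, 4 of 12 other scavenger receptors tested. Clec14a (0.68 ± 0.13) and Cd302 (-0.44 ± 0.12) were called among 8 lectin receptors, Cd44, the hyaluronan receptor of many cell types (1.14 ± 0.22), and Hyal2 (-0.45 ± 0.12) among 5 hyaluronan genes, and Dab2 alone (0.75 ± 0.13) among 21 clathrin and lysosome genes. Called in both F8/Selenop and floor-like cells were Dab2 (1.45 ± 0.18 and 1.09 ± 0.18), Cd36 (1.105 ± 0.22 and 1.86 ± 0.40), Scarb2 (-0.90 ± 0.18 and -0.61 ± 0.16) and Cxcl16 (-0.64 ± 0.19 and -0.65 ± 0.16). The genotype test called none of the genes of the 5 lists in lymphatic, blood, F8/Selenop or floor-like cells (edgeR; 3 of 47 tested in lymphatic cells and 0 of 45 in blood cells at an unadjusted p under 0.05).

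The genes whose level followed each receptor most closely across the 83 sums of at least 20 cells in 13 endothelial subsets are given as a description. They share libraries and depth, so no p is attached, and log2(CPM + 10) was used over 12320 genes. The closest to Marco was C1ql2 (Pearson r = 0.90), to Msr1 Cyp1b1 (0.95), to Mrc1 Folh1 (0.92) with Pla2r1 (0.90) among the first 3, to Stab1 Gpm6a (0.95), to Stab2 Tnc (0.96), to Lyve1 Slc38a4 (0.93), to Clec4g Adam33 (0.96), to Fcgr2b Lrrn3 (0.90), to Clec1b Xlr5c (0.92) and to Scarb1 Sparcl1 (0.94). Among the receptors themselves the highest value was 0.88, between Clec4g and Msr1. None of the receptors was among the 3 genes closest to another.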

How the data were processed

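Single-cell RNA libraries were made from sorted lymph-node endothelial cells with hashtag antibodies. The authors deposited raw UMI counts per gene and barcode, made with Cell Ranger (6.1 per the submitters' processing notes, 6.0.1 per the file headers) on mm10. Library 1 held 7709 barcodes and library 2 2903. Hashtags were assigned with Seurat 5.3.0, and cells with 1 tag, at least 500 genes and at most 10% mitochondrial UMIs that Scrublet did not call doublets were kept; it removed 59 and 3 cells. Clustering used scanpy 1.11.5 (1974 variable genes, 30 components, 15 neighbours, Leiden resolution 1). UMI counts were added up over the cells of a class or subset within each pool of a library and tested with edgeR 4.0.16 (quasi-likelihood, TMM, filterByExpr, Benjamini-Hochberg over all genes tested, adjusted p under 0.05), with DESeq2 1.42.0 as an alternative. SEs are derived from the fold change and its F statistic. The members and gene lists were chosen with earlier results of these data known. A subset took a marker name only where at least 3 fixed markers were detected and at least 2 were among its leading 10 genes, the latter set after clusters were seen. The text names all 10 members, from each list the up to 4 genes with the largest called change between lymphatic and blood cells and genes called in other comparisons, and genes among the 3 with the highest Pearson correlation with a member. Pools of a library share its processing, per the labels, so the library was used as a replicate block; correlations of the deviations of its pools were 0.0509 to 0.224 in lymphatic and 0.112 to 0.477 in blood cells. Coordinates are from GENCODE M21. The scripts were tested on simulated data.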

Additional observations from a re-analysis of the deposited data

Results flagged for a closer look

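The tissue effect differed between lymphatic subsets for 3 receptors by the test of the difference itself (edgeR, n = 2 pools per group). For Fcgr2b the effect, peripheral minus mesenteric, in F8/Selenop cells minus that in floor lymphatic-like cells was -4.42 on the log2 scale, and lay between -6.19 and -3.96 over the alternatives with a value; DESeq2 gave no adjusted p for it. For Clec4g it was 1.16 higher in F8/Selenop than in floor-like cells, with 1.19 (adjusted p = 0.0153) by DESeq2 and 0.57 (adjusted p = 0.666) in thinned cells. For Lyve1 it was -1.94 in ceiling-like relative to floor-like cells, with -1.59 (adjusted p = 0.0518) in cells without a macrophage-marker UMI and -1.80 with no call by DESeq2 (adjusted p = 0.593). The mesenteric ceiling-like sums rest on 13 to 114 cells. Causes of these differences were not tested.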

How the results depend on the processing

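All 10 receptors kept their calls between lymphatic and blood cells under every alternative run. The 4 tissue calls in lymphatic cells became 2 in cells with no macrophage-marker UMI. For genotype in lymphatic cells 0 calls became 1 without either replicate, and the difference of the genotype effect between tissues went from 0 to 1 with no filter on low counts. In blood cells the 0 tissue calls became 1 with DESeq2, 1 with no filter and 2 with the replicate block, and 1 to 3 without 1 replicate. In blood subsets 0 became 1 with the replicate block, and 0 to 1 without 1 replicate. The 1 tissue call in high endothelial-like cells became 2 with no filter and 2 without the WT mesenteric sums of library 2, and 1 to 2 without 1 replicate. In Igfbp5/Nts cells 0 tissue calls became 0 to 1 without 1 replicate. With at least 5 cells, the 11 tissue calls became 6 with DESeq2 and 6 in thinned cells, and 7 to 13 without 1 replicate; the 0 genotype calls became 1 with no filter and 0 to 3 without 1 replicate. The 3 called differences of the tissue effect became 1 with DESeq2, 5 with no filter and 6 with the replicate block, and 2 to 5 without 1 replicate. DESeq2 gave no adjusted p for Fcgr2b in floor-like cells or for its difference, which are 1 of the calls missing in each of these DESeq2 counts. The causes were not tested. No called result reversed. At Leiden resolution 0.5 a single cluster of 814 cells led by Selenop and F8 stood in place of the F8/Selenop and Ptx3-like subsets, which held 591 and 318 cells, so the levels of those subsets could not be recomputed. Levels in the other lymphatic subsets moved too: Lyve1 from 119 to 244 CPM in ceiling-like and from 150 to 270 CPM in Igfbp5/Nts cells, and Marco from 5.76 to 41.1 CPM in Igfbp5/Nts cells. Fcgr2b in the mesenteric floor-like sums and the sums of under 20 cells are limited by depth.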

Other observations

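Other genes of uptake and hyaluronan handling had their own subset patterns, given as levels over all pools with no test. Cd36, the fatty acid and thrombospondin receptor, had 1921 CPM in ceiling-like, 542 in Ptx3-like, 486 in Igfbp5/Nts, 227 in F8/Selenop and 31.9 in floor-like cells, and 660 CPM in blood cells. Cd44, a hyaluronan receptor, had 76.0 CPM in floor-like cells and at most 5.88 CPM in the other lymphatic subsets. Lrp2 had 24.4 CPM in floor-like and 3.08 CPM in F8/Selenop cells, and 0 in Ptx3-like and ceiling-like cells. Colec12 had 176 CPM in ceiling-like and 37.6 CPM in floor-like cells. Cemip2 ran from 1079 CPM in F8/Selenop to 74.9 CPM in Igfbp5/Nts cells. Pla2r1 had 39.2 CPM in both F8/Selenop and Ptx3-like cells, and at most 4.26 CPM in the other lymphatic subsets. In blood cells Ehd3 was lower in peripheral nodes (-2.64 ± 0.24, edgeR, adjusted p = 0.000244).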
